A study of Rattus norvegicus with 2 samples.

Results

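Nr4a1 (Nur77), Nr4a2 (Nurr1) and Nr4a3 make up the Nr4a family of nuclear receptors, and all 3 were present among the 17049 genes of the deposited expression table, beside 18 other genes whose symbol is Nr followed by a digit. The members were chosen by gene symbol from earlier results of these data, in which the reads of Nr4a1 and Nr4a2 stood higher in the Aβ library. Their levels and ratios are therefore a description and carry no test. The gene numbers in the table are 79240 for Nr4a1, 54278 for Nr4a2 and 58853 for Nr4a3.

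The RNA came from cultured primary OPCs (oligodendrocyte precursor cells, the glial progenitors of myelinating cells) of adult wild-type rat brain. One library came from OPCs given amyloid-β (Aβ), the peptide that aggregates in Alzheimer's disease, at 1 µM for 2 days, and one control library came from OPCs labelled with DMSO, a solvent. Both cultures are described as grown in OGM medium at 37 °C with 5% CO2, while the sources used here do not state strain, sex, number of animals or the assembly state of Aβ. The protocol text naming Aβ accompanies both samples, so the groups were taken from the treatment label. Each group has 1 library, so no difference could be set against a spread between replicates. Every interval below is a 95% interval of counting error alone, and reads counted without molecular identifiers need not come from separate molecules.

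Nr4a proteins are orphan receptors: their ligand-binding pocket is largely filled by amino acid side chains, and their activity depends mainly on how much protein is made. Their genes belong to the immediate early class, transcribed within minutes of cAMP, calcium, growth factor or inflammatory signals, and the mRNAs are short-lived. The proteins bind the NBRE, a short DNA element, as monomers, and Nr4a1 and Nr4a2 also form heterodimers with retinoid X receptors. Nr4a2 is needed for midbrain dopaminergic neurons in mice, and Nr4a1 and Nr4a2 restrain inflammatory genes in macrophages and microglia.

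The promoter sequences of Nr4a1 and Nr4a2 are shown because cAMP signals reach these genes through CREB, which binds the cAMP response element (CRE, TGACGTCA) and its core (TGACG, or CGTCA on the other strand). They are from RefSeq on build GRCr8, another build than the Rnor_6.0 named for the expression table, and run from 250 bases before to 50 bases after an annotated start. The Nr4a1 window is chr7:134259888-134260187 on the plus strand, and the Nr4a2 window is chr3:62104838-62105137 on the minus strand. Both are written 5′ to 3′ with each CRE core in capitals.
Nr4a1: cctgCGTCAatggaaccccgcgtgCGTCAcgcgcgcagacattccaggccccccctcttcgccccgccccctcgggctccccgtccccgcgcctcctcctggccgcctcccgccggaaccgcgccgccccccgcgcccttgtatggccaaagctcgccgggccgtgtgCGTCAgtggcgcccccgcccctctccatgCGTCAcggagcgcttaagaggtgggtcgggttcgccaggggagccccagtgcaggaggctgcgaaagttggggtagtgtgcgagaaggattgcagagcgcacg
Nr4a2: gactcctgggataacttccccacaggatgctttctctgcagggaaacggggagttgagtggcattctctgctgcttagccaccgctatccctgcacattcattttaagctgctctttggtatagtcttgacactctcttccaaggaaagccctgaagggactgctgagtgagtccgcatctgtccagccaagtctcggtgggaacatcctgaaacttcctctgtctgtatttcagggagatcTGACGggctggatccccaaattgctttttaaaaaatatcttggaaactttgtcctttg

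The Nr4a1 window held 4 CRE cores, with first bases at −246, −226, −82 and −53 from the start. Of 33469 promoter windows in the table, which can hold more than 1 per gene, 21.2% had at least 1 core and 79 (0.236%) had 4 or more, a threshold taken from the Nr4a1 count. All 4 cores lay within the same 7 letters, TGCGTCA, a string searched after the sequence had been seen. It occurred in 637 windows (1.9%), and in 1 window 4 times or more, that of Nr4a1. The Nr4a2 window held 1 core, whose first base lay at −8.

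Neither window held the full CRE, which 1.83% of all windows had. The same was true of the AP-1 site (TGANTCA, 7.33%), the NBRE (AAAGGTCA, 1.43%), the CArG box of serum response factor (1.64%) and the MEF2 site (3.29%). The Nr4a1 window had 3 GC boxes (GGGCGG), where 33.1% of windows had at least 1, and 1 NF-κB site, where 7.51% had at least 1. Nr4a2 had neither. All motifs were searched on both strands, the CRE core is part of the full CRE, and the Nr4a1 window was richer in G and C (72.3%) than that of Nr4a2 (48.7%) or the median window (51.7%). Among 16 other Nr genes with a window, 5 had a CRE core, with at most 3 in 1 window, and none had TGCGTCA. These matches are letters in a window and not measured binding sites. Each gene was searched at 1 annotated start, and sites outside its window were not searched. Whether the cultures used these starts was not tested, so an absent match does not show that a gene lacks the site.

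**Figure D1:**
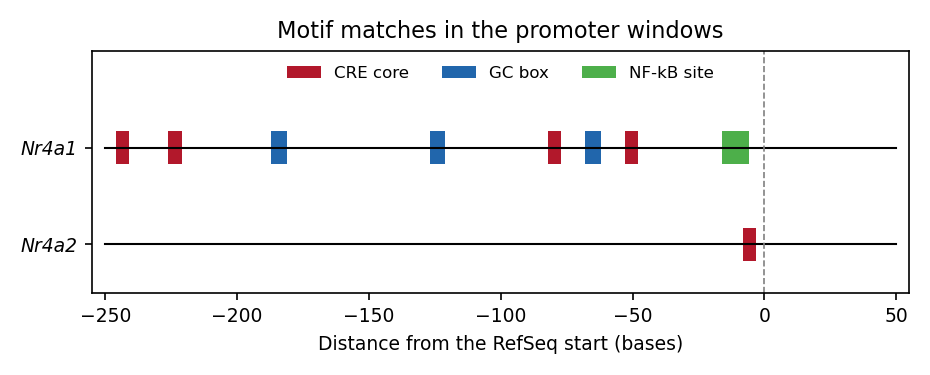
Motif matches in the promoter windows of Nr4a1 and Nr4a2, as distance in bases from the RefSeq start; coloured boxes are matches on either strand and the dashed line is the start. Nr4a1 has 4 CRE cores, 3 GC boxes and 1 NF-κB site, and Nr4a2 has 1 CRE core.

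The libraries held 15704932 estimated reads with Aβ against 15663751 in the control, and 12734 genes with Aβ against 12776 in the control reached 1 TPM, the authors' unit of level per gene length. The OPC markers Olig1 (1420 TPM with Aβ, 1557 TPM in the control), Olig2 (336 TPM with Aβ, 375 TPM in the control) and Ptprz1 (866 TPM with Aβ, 905 TPM in the control) were abundant and lay lower with Aβ. Pdgfra, a further OPC marker, was at 23.2 TPM with Aβ against 24.6 TPM in the control. Its ratio of reads per library total was 0.931 (0.867 to 0.999). Cspg4 (NG2) went the other way, at 6.65 TPM (540 reads) with Aβ against 3.70 TPM (303 reads) in the control, a ratio of reads per library total of 1.78 (1.54 to 2.05), and Lhfpl3 was at 1.08 (1.03 to 1.12). Sox10, a defining factor of the lineage, was at 0.84 TPM with Aβ against 1.22 TPM in the control, and Gpr17 at 0.13 TPM in each. All 6 astrocyte markers were measured in both libraries, with summed levels of 982 TPM with Aβ against 987 TPM in the control, so the cultures also held astrocyte transcripts.

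Nr4a1 was more abundant in the Aβ library, at 31.3 TPM (719 reads) against 11.1 TPM (255 reads) in the control library. Its counting intervals, 29.0 to 33.6 TPM with Aβ and 9.80 to 12.6 TPM in the control, did not overlap. The read ratio, the Aβ share of all reads over the control share, was 2.81 (2.43 to 3.26). Among 10909 genes whose counts are whole and sum to at least 50 over both libraries, no other had a ratio as high. The 10909 were part of 12518 genes with that many reads. The rest had fractional counts, and a higher ratio occurred among them.

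Nr4a2 was also higher with Aβ, at 10.2 TPM (261 reads) against 5.56 TPM (135 reads) in the control library. The intervals of 8.98 to 11.5 TPM with Aβ and 4.66 to 6.58 TPM in the control again did not overlap. Its read ratio was 1.93 (1.56 to 2.39), and 27 of the 10909 genes (0.248%) had a ratio at least as high. The ratio of its TPM values was lower, 1.83, and the gene length implied by reads and FPKM was 2451 bases with Aβ and 2304 bases in the control. For Nr4a1, with implied lengths of 2199 bases with Aβ and 2171 bases in the control, reads and TPM gave the same ratio.

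Nr4a3 was at 5.05 TPM (258 reads) with Aβ against 4.18 TPM (217 reads) in the control library, and here the intervals overlapped (4.45 to 5.71 TPM with Aβ, 3.64 to 4.78 TPM in the control). The read ratio of 1.19 had an interval of 0.986 to 1.43, which holds 1, so a difference was not detectable at this depth. Of the 10909 genes, 1002 (9.19%) had a ratio at least as high. Nr4a3 had about as many reads as Nr4a2 with Aβ but a lower level per length, because its implied length was 4875 bases in that library.

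**Figure D2:**
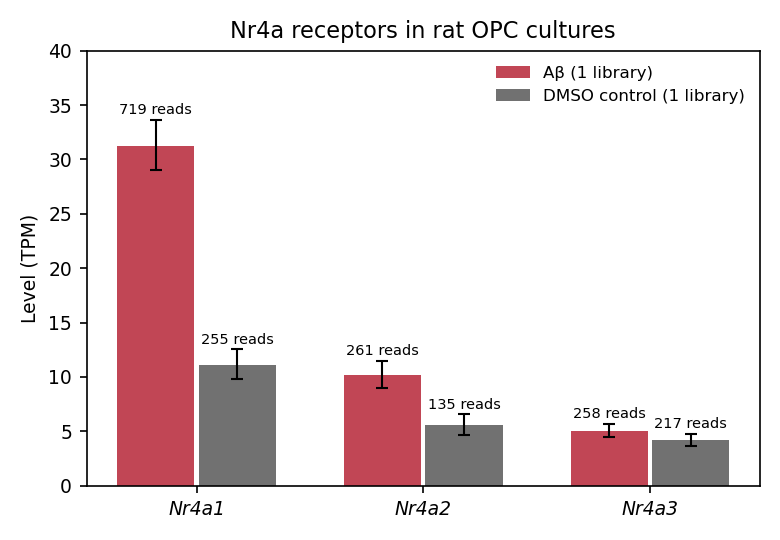
Level of each Nr4a gene in TPM (y axis) in the Aβ library (left bar) and the DMSO control library (right bar), 1 library each; error bars are exact 95% Poisson intervals of the reads written above each bar. Nr4a1 and Nr4a2 stand apart between the libraries, and the intervals of Nr4a3 overlap.

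A read ratio whose interval lies above 1 was called higher, and this held for 2 of the 3 members and for 12% of all 12980 genes that reached 1 TPM in at least 1 library. An interval below 1 was found for 0 members and for 12.5% of all genes. By the larger rule of a TPM 2-fold or more higher with Aβ, computed with a pseudocount of 1, Nr4a1 passed with a log2 ratio of 1.41, and 0.501% of all genes did. On that scale Nr4a2 had 0.77 and Nr4a3 had 0.22. Because the members were chosen with these values known, nothing is read from their counts.

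Within the family the order of level per length was the same in both libraries, Nr4a1 above Nr4a2 above Nr4a3, but the distances differed. Nr4a1 stood 6.19-fold above Nr4a3 with Aβ and 2.66-fold above it in the control, in TPM. The counting intervals of Nr4a2 and Nr4a3 did not overlap with Aβ and overlapped in the control between 4.66 and 4.78 TPM. The read ratio of Nr4a1 was 2.37 times that of Nr4a3 (1.87 to 3.0) and 1.46 times that of Nr4a2 (1.12 to 1.89). The read ratio of Nr4a2 was 1.62 times that of Nr4a3 (1.22 to 2.16).

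The 3 genes together held 46.5 TPM with Aβ against 20.9 TPM in the control, a difference of 25.6 TPM of which Nr4a1 made up 78.6%. Without Nr4a1 the remaining pair summed to 15.2 TPM with Aβ against 9.74 TPM in the control, and its summed reads had a ratio of 1.47 (1.28 to 1.69). Nr4a1 supplied 58.1% of the family's reads with Aβ (exact binomial interval 55.3% to 60.8%) and 42.0% in the control (38.0% to 46.1%). The share of Nr4a3 was 20.8% (18.6% to 23.2%) with Aβ and 35.7% (31.9% to 39.7%) in the control. Nr4a2 held 21.1% (18.8% to 23.5%) with Aβ and 22.2% (19.0% to 25.8%) in the control, intervals that overlap.

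Of the 18 other Nr genes, 11 reached 1 TPM in either library, and their read ratios ran from 0.930 to 1.21 with a median of 1.01. The ratios of Nr4a1 and Nr4a2 lay above this range and that of Nr4a3 within it. Of the 11, 1 was called higher and 0 lower, near the 12% and 12.5% of all genes, and 0 passed 2-fold in either direction. The gene called higher was Nr1h2 (LXRβ, an oxysterol sensor), at 44.1 TPM with Aβ against 39.3 TPM in the control, with an interval of 1.00 to 1.24 that barely cleared 1. Its relative Nr1h3 (LXRα) was at 6.0 TPM with Aβ against 5.0 TPM in the control, a ratio of 1.21 (0.882 to 1.67) from 91 reads with Aβ and 75 reads in the control.

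**Figure D3:**
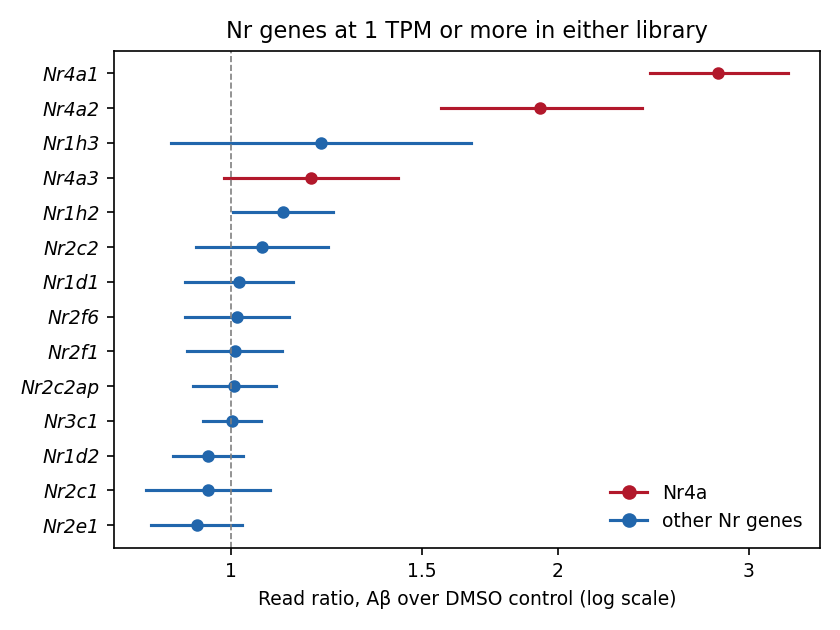
Read ratio, Aβ over DMSO control (log x axis), of the Nr genes that reached 1 TPM in at least 1 library; points are ratios, lines exact 95% counting intervals, and the dashed line marks 1. Nr4a1 (2.81) and Nr4a2 (1.93) lie to the right of the other genes, which end at 1.21, and Nr4a3 (1.19) lies among them.

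The position of Nr4a1 among the Nr genes therefore differed between the libraries, while that of Nr4a2 and Nr4a3 did not. With Aβ its 31.3 TPM ranked 7 of 21, with counting intervals that overlapped those of the glucocorticoid receptor Nr3c1 (33.5 TPM) and of Nr1d2, a clock repressor (30.9 TPM). In the control library its 11.1 TPM ranked 11 of 21, below the testicular receptor genes Nr2c2 (17.1 TPM) and Nr2c1 (16.97 TPM), whose intervals did not reach it. Nr4a2 ranked 12 and Nr4a3 ranked 14 in each library, on either side of Nr1h3. In the control the intervals of Nr4a2, Nr1h3 and Nr4a3 overlapped from neighbour to neighbour. With Aβ that of Nr4a2 stood clear of both neighbours, and those of Nr1h3 and Nr4a3 overlapped.

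The most abundant symbol of the pattern, Nr2c2ap (72.7 TPM with Aβ, 72.0 TPM in the control), names a protein associated with Nr2c2 and not a receptor. By the mean of both libraries, the next were Nr2f6 (43.5 TPM with Aβ, 42.8 TPM in the control), Nr1h2, the neural progenitor receptor Nr2e1 (37.2 TPM with Aβ, 39.1 TPM in the control) and Nr2f1, also called COUP-TFI (34.3 TPM with Aβ, 33.8 TPM in the control). The Nr4a genes made up 11.2% of the summed TPM of all 21 genes with Aβ and 5.45% in the control. The reads of the 18 others summed to 9198 with Aβ and 9171 in the control, a ratio of 1.00 (0.972 to 1.03). The estimated counts of Nr1d1 and Nr2c2ap were fractional, so these genes may share reads with others. Nr1d1 overlaps Thra on the opposite strand, and the sources used here do not state whether counting used strand. The 7 receptors under 1 TPM had at most 30 reads with Aβ against 39 in the control.

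**Figure D4:**
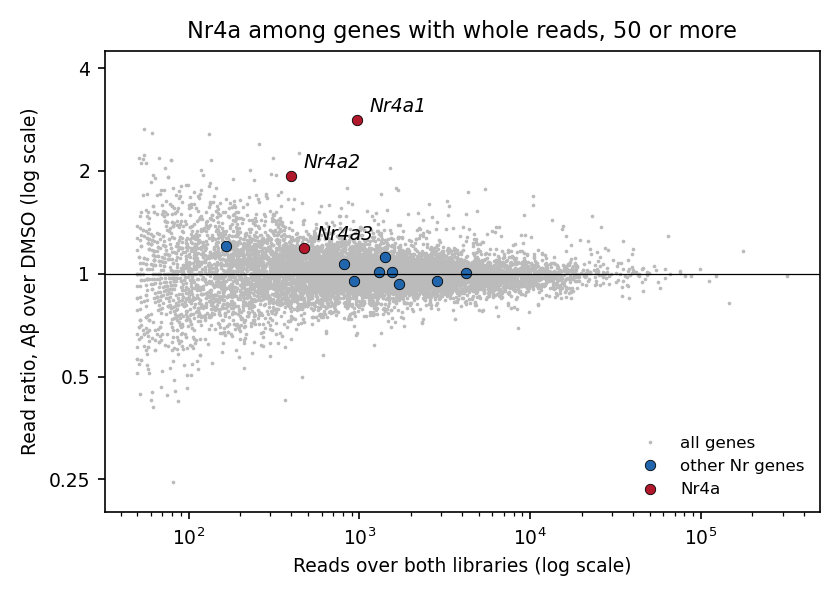
Read ratio, Aβ over DMSO control (log y axis), against reads over both libraries (log x axis) for genes whose counts are whole and sum to 50 or more; grey points are all genes, blue other Nr genes, red Nr4a genes. Nr4a1 is the uppermost point at 2.81, Nr4a2 lies at 1.93 near the upper edge, and Nr4a3 lies inside the grey points at 1.19.

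Nuclear receptors with other symbols lay near equality. Of 24 listed, 10 reached 1 TPM, 3 were called higher and 0 lower, and the median log2 TPM ratio was 0.07. Over all 12980 genes 12% were called higher and 12.5% lower, and the median was 0.01. The higher ones were the thyroid hormone receptor Thrb (1.47, 1.07 to 2.02, 103 reads with Aβ, 70 in the control), the estrogen-related receptor Esrra (1.17, 1.05 to 1.31) and Rorb (1.06, 1.03 to 1.09). Rarg, a retinoic acid receptor, was at 0.866 (0.613 to 1.22). The heterodimer partners of Nr4a1 and Nr4a2 were present at like levels in both libraries, Rxra at 16.5 TPM with Aβ against 16.2 TPM in the control and Rxrb at 19.4 TPM with Aβ against 18.3 TPM in the control. The third retinoid X receptor, Rxrg, had 3 reads with Aβ against 1 in the control.

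Of 14 measured partners and coregulators, 0 were called higher and 5 lower, with a median log2 TPM ratio of −0.07, against 12% of all genes called higher and 12.5% called lower. The coactivator Ppargc1a had 122 reads with Aβ against 177 in the control, a read ratio of 0.688 (0.541 to 0.871). The histone demethylase Kdm1a (0.937, 0.886 to 0.991), which acts with the CoREST protein Rcor1, was lower by a smaller amount. Rcor2 (1.24, 0.787 to 1.97) and the coactivator Ncoa2 (0.923, 0.825 to 1.03) had intervals that hold 1. So had Rela, the NF-κB subunit that Nr4a2 binds, at 1.01 (0.928 to 1.10).

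Upstream of the family, cAMP, calcium and MEF2 pathway genes had 12 of 29 measured members called higher, 3 lower and a median log2 TPM ratio of 0.05, where 12% of all genes were called higher and 12.5% lower. The kinase Sik1, a brake on CREB coactivators, had a ratio of 1.5 (1.19 to 1.89), and the calcium-regulated factor Nfatc2 had 1.47 (1.27 to 1.71). Nfatc4, on 27 reads with Aβ and 42 reads in the control, was at 0.641 (0.380 to 1.06). MEF2 factors bind the Nr4a1 promoter in mouse T cells, and of these Mef2c (1.34, 1.15 to 1.56), Mef2a (1.16, 1.05 to 1.29) and Mef2d (1.13, 1.06 to 1.20) were called higher. So was Hdac5 (1.33, 1.26 to 1.39), a repressor of MEF2. Creb1 itself, at 25.1 TPM with Aβ against 26.3 TPM in the control, had a ratio of 0.945 (0.884 to 1.01).

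Genes that cAMP induces beside the Nr4a family were mostly higher with Aβ, 13 of 17 measured against 1 lower, with a median log2 TPM ratio of 0.48, beside 12% higher and 12.5% lower over all genes. The neurotrophin Bdnf (2.15, 1.32 to 3.61) rested on 54 reads with Aβ against 25 in the control. The transcription factor Nfil3 had a ratio of 1.52 (1.28 to 1.80) and the small GTPase Gem 1.5 (1.34 to 1.69). The clock gene Per1 was at 1.49 (1.36 to 1.64) and Crem, which encodes CREB-like activators and repressors, at 1.33 (1.19 to 1.49). The 1 member called lower was Ppargc1a. Crem and Sik1 also stand in the upstream list, and 4 genes are shared with the immediate early list.

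Of 27 measured immediate early genes outside the family, 16 were called higher and 0 lower, with a median log2 TPM ratio of 0.24, the shares over all genes being 12% and 12.5%. The phosphatase Dusp2 had a ratio of 2.18 (1.28 to 3.85) from 46 reads with Aβ and 21 reads in the control, the synaptic gene Arc 2.01 (1.51 to 2.68) and Dusp5 1.61 (1.33 to 1.95). Each lay below the ratio of Nr4a1, whose interval overlapped those of Dusp2 and Arc but not that of Dusp5. The interval of Nr4a2 overlapped those of all 3 genes. Among genes described elsewhere as Nr4a targets, 12 of 20 were in the table and 6 reached 1 TPM, of which 2 were called higher (12% of all genes) and 0 lower (12.5%), the median log2 TPM ratio being 0.22. These were Spp1 (osteopontin), at 398 TPM with Aβ against 345 TPM in the control (1.15, 1.10 to 1.20), and Bdnf. The muscle enolase Eno3 had 1.26 (0.923 to 1.72). Slc18a2, the vesicular monoamine transporter controlled by Nr4a2 in dopaminergic neurons, was at 7.83 TPM with Aβ against 7.39 TPM in the control, a ratio of 1.03 (0.890 to 1.19).

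**Figure D5:**
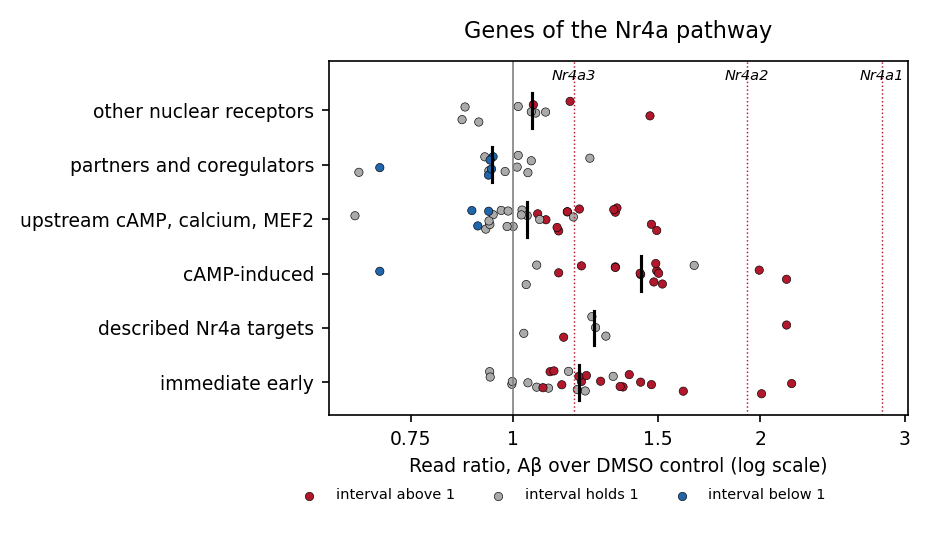
Read ratio, Aβ over DMSO control (log x axis), of list members that reached 1 TPM in at least 1 library; each point is a gene coloured by whether its 95% counting interval lies above, holds or lies below 1, black bars are list medians, and dotted lines mark the Nr4a genes. The median is 1.43 for cAMP-induced genes and 0.943 for partners and coregulators.

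By level and ratio together, the genes nearest to Nr4a1 over the 2 libraries were the cytokine gene Il6 (27.6 TPM with Aβ, 12.7 TPM in the control), the neurite growth factor Nrn1 (25.5 TPM with Aβ, 11.3 TPM in the control) and the cytokine Il11 (33.2 TPM with Aβ, 15.3 TPM in the control). Likeness was the distance in log2 mean TPM and log2 read ratio among 10517 genes, and these lay 0.368, 0.375 and 0.420 away. The nearest to Nr4a2 were the keratin gene Krt18 (distance 0.072), Mblac1 (0.160) and the cytokine Lif (0.230). The place of Lif rests on its read ratio of 1.96 (1.54 to 2.52), since its levels, 10.02 TPM with Aβ against 8.42 TPM in the control, lay closer together. The nearest to Nr4a3 were Usp31 (0.030), Lhfpl4 (0.039) and Ccdc57 (0.040), each with a counting interval that holds 1.

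The authors' deposited table of gene ontology terms for genes higher with Aβ, made from the same contrast, named Nr4a1 in 13 of its 282 terms and Nr4a2 in 9. In the authors' deposited table Nr4a3 stood in 0 terms, and no term held more than 1 Nr4a gene. There the first term with Nr4a1 was the response to molecule of bacterial origin, with 31 genes (fold enrichment 3.52). Its highest fold enrichment, 5.38, was for 8 genes of negative regulation of cysteine-type endopeptidase activity involved in apoptotic process. Nr4a1 also stood among 30 genes of the response to lipopolysaccharide (3.54) and 18 of cell chemotaxis (2.48). In the same authors' deposited table the first term with Nr4a2, also its highest in fold enrichment, was organic hydroxy compound biosynthetic process, with 24 genes (4.05). Nr4a2 also stood among 24 genes of learning or memory (2.67) and 20 of the response to hypoxia (2.4). The terms that are neither first nor highest are examples, chosen by no set rule. No other Nr gene was named in the authors' deposited table. Its terms name 246 genes, from a list of 391, so a gene absent from the terms may still be on that list.

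Markers of several cell types also had members called higher or lower, as did 12% and 12.5% of all genes, and their part in the Nr4a ratios was not tested. In bulk RNA, fewer cells of a type and less RNA per cell cannot be told apart. Of 8 OPC markers, 7 reached 1 TPM, 2 were called higher and 4 lower, and the list summed to 2729 TPM with Aβ against 2936 TPM in the control. Of 7 mature oligodendrocyte markers, 6 reached 1 TPM, 0 were called higher and 2 lower, and the list summed to 211 TPM with Aβ against 223 TPM in the control. Of 8 microglia and macrophage markers, 7 reached 1 TPM, 0 were called higher and 2 lower (Aif1 and C1qa), and the list summed to 153 TPM with Aβ against 196 TPM in the control. Of 6 neuron markers, 5 reached 1 TPM, 2 were called higher (Rbfox3 and Snap25) and 2 lower (Syt1 and Gad1), and the list summed to 25.9 TPM with Aβ against 21.6 TPM in the control. Of 6 astrocyte markers, 2 were called higher and 3 lower. Endothelial markers summed to 4.58 TPM with Aβ against 4.39 TPM in the control, and fibroblast or pericyte markers to 1.97 TPM with Aβ against 3.22 TPM in the control. No listed marker found in the table was at 0 in both libraries.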

How the data were processed

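The authors' deposited table gives, per the file headers, estimated counts of reads, FPKM and TPM for each gene in each library. Bowtie2 and build Rnor_6.0 are named in the submitters' processing notes; the sources used here do not state the counting tool or annotation. The deposited normalized read count is, in each of 17049 rows, the read count rounded up; it was called a score here and left unused. The authors' deposited enrichment table gives, per its file headers, numbers of genes, fold enrichment as a ratio, p-values and a z score; its p-values were not used.

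Estimated counts were rounded to whole numbers. Read ratios carry 95% intervals from the conditional binomial (exact, Clopper-Pearson), levels carry exact Poisson intervals, and ratios between members carry exact conditional odds ratio intervals (scipy 1.17.1, Python 3.11.15). The interval step was tested on simulated data that followed the counting model it assumes. That test does not bear on variation between replicate cultures or on duplicate reads. TPM ratios used log2 with a pseudocount of 1, which understates low genes, over genes that reached 1 TPM in at least 1 library.

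The members, lists, motifs and alternatives were chosen with earlier results of these data known. Named genes were the members, other Nr genes whose interval excludes 1 or near in level, the 5 most abundant, the 3 largest ratios in each list at 50 or more reads, and the 3 genes nearest each member. Further list genes (Rorb, Rxra, Rxrb, Rxrg, Kdm1a, Rela, Mef2a, Mef2c, Mef2d, Hdac5, Creb1, Crem, Per1 and Slc18a2) were named for their role after their values were seen; 1 further list gene is not reported here. RefSeq promoters matched 2 of 3 members; the planned protein comparison was not made. A RefSeq gene table was used for older symbols only.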

Additional observations from a re-analysis of the deposited data

How the results depend on the processing

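The read ratios of Nr4a1 (2.81), Nr4a2 (1.92) and Nr4a3 (1.18) kept their direction and their side of 1 when libraries were scaled by the median gene ratio, and also when scaled to genes with whole reads. The log2 TPM ratio of Nr4a1 ran from 1.17 (pseudocount 5) to 1.48 (pseudocount 0.1) and stayed past 2-fold with FPKM and CPM. That of Nr4a2 ran from 0.52 to 0.86 (0.87 with CPM) and that of Nr4a3 from 0.13 to 0.27, all short of 2-fold. Among other Nr genes, 1 was called higher and 0 lower under each scaling and filter tried. Counts over all genes and over the lists moved by less than 1.5 times. Shares by summed TPM in place of reads, which corrects for gene length, differed by more than the counting interval in 5 cases: Nr4a1 at 67.2% with Aβ and 53.3% in the control, Nr4a3 at 10.9% with Aβ and 20.04% in the control, and Nr4a2 at 26.6% in the control. Nr4a3 has the longest implied length of the 3. No library could be left out, since each group has 1. With 258 reads (Aβ) and 217 reads (control), the Nr4a3 interval ran from 0.986 to 1.43. It therefore holds 1 and also ratios above 1, up to 1.43.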

Other observations

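The CRE core was present in 32 of 115 windows (27.8%) of genes with a read ratio of 1.5 or more, a group that includes Nr4a1 and Nr4a2, in 13 of 98 (13.3%) of genes with a ratio of 0.667 or less, and in 2936 of 8983 (32.7%) of all genes with whole reads and 50 or more reads, so its share in the higher group lay below that of all genes and above that of the lower group. The median share of G and C was 60.7%, 57.0% and 61.3% of the bases. The NF-κB site was present in 15.7%, 8.16% and 10.1% of these windows. The limits on the ratio were set after the data were seen, and no test was made.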
